A study of Mus musculus with 4 samples.

Results

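The genes described here are the cytosolic ribosomal proteins of cultured mouse islet cells. They were taken by symbol, as Rpl or Rps with a number and an allowed letter, plus Rpsa, Rplp0, Rplp1 and Rplp2. Of 32285 genes in the files, 81 symbols matched, and 78 of them reached 20 UPM in insulin-producing cells of at least 1 library. A UPM is 1 UMI (unique molecular identifier, a count of a captured mRNA molecule) per 1000000 UMIs. The 3 genes left out, Rpl3l, Rpl10l and Rpl39l, had at most 0.0378 UPM in any library. Genes of the ribosome named otherwise (such as Rps3a1, Fau and Rack1) and pseudogene symbols were outside the rule.

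Cytosolic ribosomes are built from a small 40S and a large 60S subunit, whose proteins are made in nearly equal amounts and assembled on ribosomal RNA in the nucleolus. Their mRNAs typically begin with a C followed by a run of pyrimidines, the 5′ terminal oligopyrimidine tract, through which mTORC1 and Larp1 regulate their translation and stability together. In beta cells, where a large part of protein synthesis is proinsulin, the ribosomes serve secretory output, and islets adjust translation to glucose within hours.

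Islets came from wild-type male C57BL6J mice, 8 weeks old, and were kept in culture for 24 hours. The 4 groups were 1 mM imeglimin in 11.1 mM glucose, DMSO vehicle in 11.1 mM glucose, 1 mM imeglimin in 3.9 mM glucose, and DMSO vehicle in 3.9 mM glucose; imeglimin is an oral glucose-lowering drug. Cells were released with Accutase and profiled with 10x Genomics droplet chemistry, which counts 3′ ends, so levels are compared between libraries and not between genes. Each group is 1 library, so no difference between groups has a replicate check or a p-value, and every interval below covers counting error only.

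The imeglimin 11.1 mM, vehicle 11.1 mM, imeglimin 3.9 mM and vehicle 3.9 mM libraries kept 8427, 7444, 8755 and 7166 cells. Classes were rebuilt by clustering without any ribosomal protein gene and named from marker genes, and 114 of 31678 kept barcodes occurred in more than 1 library. Beta-like cells, in which 7 or 8 of the 8 beta markers were detected per cluster, numbered 5369, 4908, 4350 and 4624 in the same order, with median depths of 12863, 13044, 10177 and 12151 UMIs. The libraries stood apart within this class. Of the beta-like cells, 2424 of imeglimin 11.1 mM lay in cluster 13 and 2266 in cluster 19, 3606 of vehicle 11.1 mM in cluster 14, 3342 of imeglimin 3.9 mM in cluster 16 and 4301 of vehicle 3.9 mM in cluster 1. Group, library and cluster therefore cannot be told apart for most of these cells.

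Several sequence features around the start sites, which the choice by symbol did not use, differed in frequency between members and all promoters. RefSeq promoters (GRCm38.p6, 250 bases before to 50 after each start) were matched for 58 of 78 members, 9 of which have more than 1 listed start. A pyrimidine run, a C followed by at least 4 of C or T, began exactly at the annotated start in 12 of 58 members (20.7%), against 2.49% of all 27025 promoters, and within 10 bases of it in 55.2% against 30.8%. Each of 4 short motifs was searched on both strands of the whole 300 bases. The letters CCGGAAG were in 39.7% of member promoters against 9.12% of all, GGGCGG in 60.3% against 35.9%, AAGATGGC in 6.9% against 2.88%, and TATAAA in 8.62% against 14.2%. The following windows of 45 bases, from 20 before to 25 after the annotated start and read 5′ to 3′ on the strand of the gene, show 4 members with a run at the start and the Rpl36a and Rpl36al paralogues, whose counts went apart below. Capitals mark the run counted from the C at the annotated start, or else from the nearest such C; pyrimidines before that C, as in Rpl15 and Rplp2, are not counted.
Rpl15: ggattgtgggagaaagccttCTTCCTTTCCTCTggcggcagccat
Rps6: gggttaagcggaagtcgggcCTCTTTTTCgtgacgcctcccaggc
Rps27: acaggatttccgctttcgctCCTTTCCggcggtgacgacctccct
Rplp2: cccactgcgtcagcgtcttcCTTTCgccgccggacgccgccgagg
Rpl36a: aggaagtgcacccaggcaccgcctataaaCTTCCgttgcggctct
Rpl36al: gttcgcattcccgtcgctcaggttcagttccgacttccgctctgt
These lie at chr14:18270962-18271006 (minus strand), chr4:86857343-86857387 (minus), chr3:90213624-90213668 (minus), chr7:141447631-141447675 (plus), chrX:134585634-134585678 (plus) and chr12:69184043-69184087 (minus). Counted this way, the run had 13 bases in Rpl15 and 5 in Rplp2, while in Rpl36a the run lies 9 bases past the annotated start and in Rpl36al none was found within 10 bases. For imeglimin over vehicle at 11.1 mM, the members with a run at the start had a median log2 ratio of 0.48 (0.29 to 0.78). The 46 members without one exactly there had 0.41 (-0.01 to 0.94). Some of those 46, such as Rpl27a and Rpl13a, have a run within 10 bases of the start. The split therefore cannot separate mRNAs with a tract from those without.

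Ribosomal protein genes made up the smallest share of beta-like transcripts in vehicle-treated islets at 11.1 mM glucose. The 78 members together held 7.63% of UMIs in the imeglimin 11.1 mM library, against 5.78% in the vehicle 11.1 mM library, and 9.41% in the imeglimin 3.9 mM library, against 10.4% in the vehicle 3.9 mM library. Hormone and mitochondrial transcripts moved the other way between the glucose levels, at 40.8% and 46.3% of UMIs in imeglimin and vehicle at 11.1 mM and 27.9% and 19.8% at 3.9 mM. With those transcripts taken out of the total, the shares were 12.9% and 10.8% at 11.1 mM and 13% and 13% at 3.9 mM, so that 3 libraries lay close together and vehicle 11.1 mM below them. The nuclear RNA Malat1 had 2.05% and 1.13% of UMIs in imeglimin and vehicle at 11.1 mM, and 2.4% and 1.52% at 3.9 mM; its part in the shares was not tested.

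The difference at 11.1 mM appeared across individual cells and in each of 4 ranges of depth. The median cell had 7.51% of its UMIs in members with imeglimin (10th to 90th percentile 5.65% to 9.89%), against 5.59% with vehicle (4.14% to 7.68%). In cells of 1000 to 5000 UMIs the medians were 7.76% with imeglimin and 6% with vehicle, in cells of 5000 to 10000 UMIs 7.83% and 5.76%, in cells of 10000 to 20000 UMIs 7.39% and 5.48%, and in deeper cells 7.57% and 5.76%. Inside shared clusters the gap was narrower once hormone and mitochondrial genes were left out. Both 11.1 mM libraries had at least 50 cells in 4 clusters. Cluster 13 (2424 imeglimin and 773 vehicle cells) had medians of 12% with imeglimin and 11.2% with vehicle, and cluster 14 (197 and 3606 cells) 10.8% and 10.1%. Cluster 19 (2266 and 86 cells) had 13.3% and 11.8%, and cluster 9 (234 and 189 cells) 17.7% and 17.1%. Cluster 14, led by the beta cell genes Slc2a2 and Mafa, held the lowest values in both groups.

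**Figure D1:**
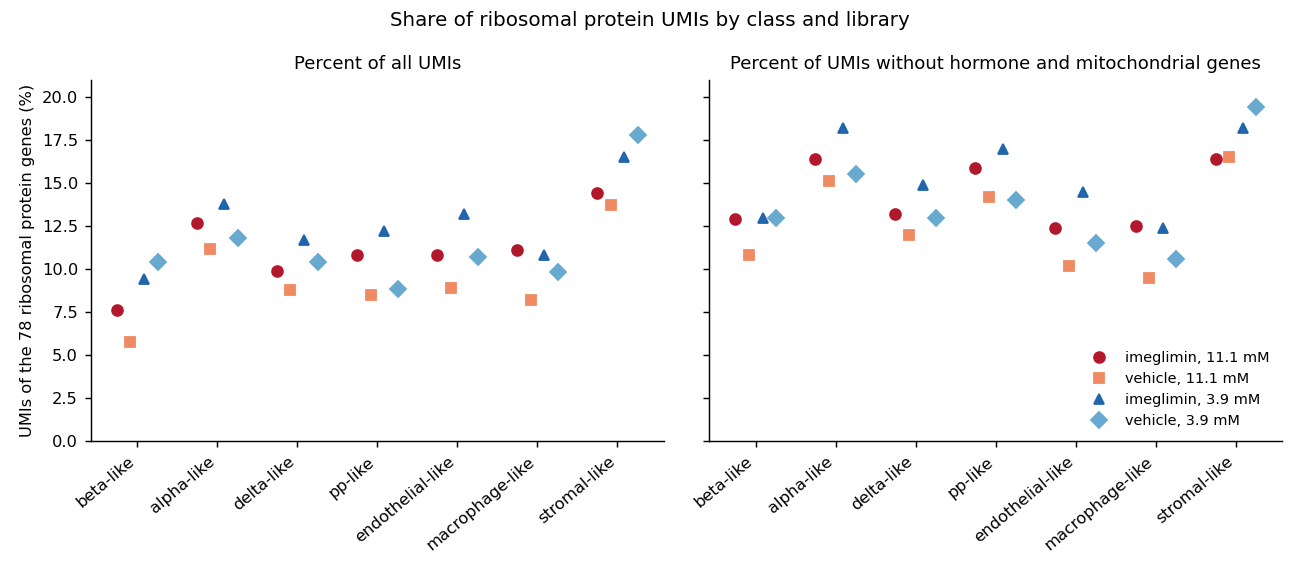
Percent of UMIs that belong to the 78 ribosomal protein genes (y axis), per class of cells (x axis) and library (symbols), of all UMIs on the left and without hormone and mitochondrial genes on the right. In beta-like cells the vehicle 11.1 mM library is lowest in both panels, at 5.78% and 10.8%, and the other libraries move together to 12.9%, 13% and 13% in the right panel.

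Gene by gene, levels were taken as UPM after TMM scaling, which aligns the bulk of genes between libraries. The members spanned 309 (Rpl4) to 3722 (Rpl41) in imeglimin 11.1 mM and 210 (Rpl36a) to 2256 (Rpl41) in vehicle 11.1 mM, with medians of 988 and 751. They spanned 311 (Rpl4) to 2444 (Rps14) in imeglimin 3.9 mM and 326 (Rpl4) to 2409 (Rpl41) in vehicle 3.9 mM, with medians of 1144 and 1003. Vehicle 11.1 mM was the lowest library for 74 of 78 members, for 77 with plain UPM, and for 55 without hormone and mitochondrial genes in the total. The highest library was imeglimin 3.9 mM for 50 members, imeglimin 11.1 mM for 21, vehicle 3.9 mM for 6 and vehicle 11.1 mM for 1, Rpl36al.

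Imeglimin at 11.1 mM glucose went with higher counts of nearly every ribosomal protein gene in beta-like cells. The log2 ratio of imeglimin to vehicle was above 0 for 77 of 78 members, against 67% of the 5639 genes compared, and its counting interval lay above 0 for all 77. The median was 0.42 (quartiles 0.30 and 0.62), against 0.12 over all genes. At least 1.5-fold higher were 21 members (26.9%), against 5.96% of all genes, and 0 were 1.5-fold lower, against 4.33%. The 40S and 60S members had medians of 0.41 and 0.42. The size of this difference depended on the scaling: the median was 0.36 with plain UPM, and 0.22 without hormone and mitochondrial genes, where 67 members lay above 0 and 6 were at least 1.5-fold higher.

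The members farthest above the median were small proteins of both subunits. Rpl36a, a 60S protein near the exit site of transfer RNA, had 402 scaled UPM with imeglimin and 210 with vehicle, a log2 ratio of 0.94 (95% interval 0.91 to 0.97). Rps12, a 40S protein of the head, had 1866 with imeglimin and 1050 with vehicle (0.83). Rpl39, a very short protein that lines the exit tunnel for new chains, had 1052 with imeglimin and 595 with vehicle (0.82). Rps29, a zinc-binding 40S protein, had 1020 with imeglimin and 581 with vehicle (0.81). Next in order came Rpl38 (1080 with imeglimin and 628 with vehicle), Rpl12 (1752 and 1030), Rps26 (565 and 332) and Rps2 (2417 and 1431), with log2 ratios of 0.76 to 0.78. Rpl36a, Rps12, Rpl39 and Rps29, with Rplp1, also lay above the member median in each of the 6 other classes of cells in this comparison. Those classes come from the same libraries and are not independent of each other.

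At the other end, 5 members were close to equal in imeglimin and vehicle at 11.1 mM. Rpl36al had 634 with imeglimin and 639 with vehicle (log2 ratio -0.01, interval -0.03 to 0.01). Rpsa, a 40S protein also known as the laminin receptor precursor, had 826 with imeglimin and 794 with vehicle (0.06). Rpl10, which joins the 60S subunit late in its maturation, had 1131 with imeglimin and 1057 with vehicle (0.10). Rpl29 (0.07) and Rpl10a (0.09) completed this end, and all 5 lay below the member median in the 6 other classes too. Relative to the median member, which no scaling changes, Rpl36a stood at 0.52 and Rpl36al at -0.43.

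**Figure D2:**
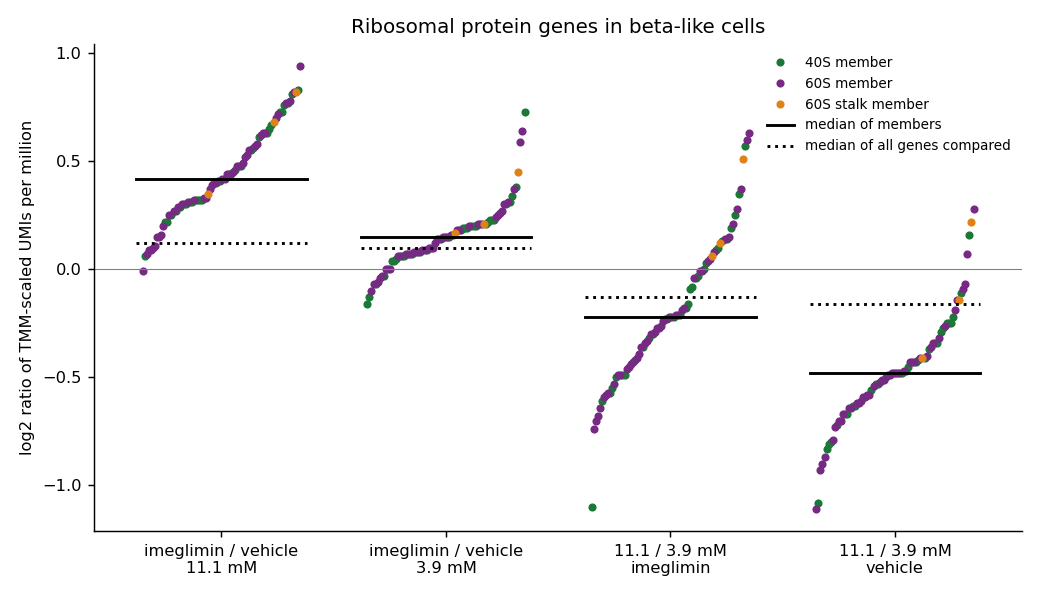
Log2 ratio of TMM-scaled UPM in beta-like cells (y axis) for each of the 78 members, in order of size, in 4 comparisons (x axis), with 1 library per group; solid lines are member medians and dotted lines the medians of all genes compared. Members lie above the gene median with imeglimin at 11.1 mM (0.42 against 0.12) and below it at 11.1 over 3.9 mM under vehicle (-0.48 against -0.16).

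At 3.9 mM glucose, imeglimin and vehicle differed less in these genes, and the sign for the group as a whole depended on the scaling. The median log2 ratio of imeglimin to vehicle was 0.15 after TMM, against 0.10 over all 6003 genes, but -0.16 with plain UPM and -0.01 without hormone and mitochondrial genes. After TMM 66 members lay above 0, against 58.8% of all genes, and with plain UPM 8 did. At least 1.5-fold higher were 3 members (3.85%), against 12.5% of all genes, and 0 were 1.5-fold lower, against 10.4%. The ribosomal protein genes thus lay near the middle of all genes here, with 54.1% of genes below the member median, against 86% at 11.1 mM.

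The 3 members at least 1.5-fold higher at 3.9 mM had a positive ratio with TMM, with plain scaling and without hormone and mitochondrial genes. Rps2, a 40S protein at the entry of the mRNA channel, had 2115 with imeglimin and 1278 with vehicle, a log2 ratio of 0.73 (0.42 plain, 0.57 without hormone and mitochondrial genes). Rpl7a, a 60S protein, had 863 with imeglimin and 553 with vehicle (0.64, with 0.34 and 0.49 under the other scalings). Rpl15, also of the 60S subunit, had 1504 with imeglimin and 1002 with vehicle (0.59, with 0.28 and 0.43). Of the 6 other classes, Rps2 and Rpl7a lay above the member median in 6 and Rpl15 in 5. Farthest below the median member were Rps27 with 772 and 861 in imeglimin and vehicle (-0.31 relative to the median member), Rps25 with 782 and 853 (-0.27) and Rpl36 with 599 and 642 (-0.25), and then Rpl4 (-0.22) and Rpl3 (-0.21), proteins that stabilise the 60S core. Rps25 and Rpl3 lay below the member median in 6 of the 6 other classes, Rpl36 in 5, Rps27 in 4 and Rpl4 in 3.

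The imeglimin ratio at 11.1 mM minus that at 3.9 mM had a median over members of 0.25, against 0.04 over the 5285 genes compared at both, and ranged from -0.28 to 0.87. It was above 0 for 67 of 78 members, against 54.1% of those genes, and the ratio was above 0 at both glucose levels for 66, against 45.7%. These counts are after TMM. At 3.9 mM, 8 members lay above 0 with plain UPM and 38 without hormone and mitochondrial genes. Under those scalings no more than these could be above 0 at both. With 1 library per group this difference was not tested, and the 2 ratios share no library.

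High glucose went with lower ribosomal protein counts in vehicle-treated beta-like cells. The median log2 ratio of 11.1 to 3.9 mM under vehicle was -0.48, against -0.16 over 5895 genes, and ranged from -1.11 to 0.28. At least 1.5-fold lower were 25 members (32.1%), against 20.2% of all genes, and 0 were 1.5-fold higher, against 9.8%; 4 members lay above 0, against 38% of genes. Under plain scaling the median was -0.87 with 68 members at least 1.5-fold lower, and without hormone and mitochondrial genes it was -0.30 with 9. Rpl36, a 60S protein, had 298 scaled UPM at 11.1 mM and 642 at 3.9 mM (-1.11), Rpl37 530 and 1012 (-0.93), Rpl24, which bridges the subunits, 444 and 831 (-0.90), and Rpl34 660 and 1206 (-0.87). Of the 6 other classes, Rpl36, Rpl37 and Rpl34 lay below the member median in 6, Rpl24 in 4, and Rps27l, second lowest in beta-like cells at -1.08, in 3.

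After TMM, 4 members were higher at 11.1 mM than at 3.9 mM glucose under vehicle, and none was under plain scaling. Rpl36al had 639 at 11.1 mM and 525 at 3.9 mM, a log2 ratio of 0.28 that became -0.11 under plain scaling. Rplp0 had 1003 at 11.1 mM and 859 at 3.9 mM (0.22, -0.17 plain), and Rps2 had 1431 and 1278 (0.16, -0.23 plain). Rpl13a, a 60S protein that can also silence mRNAs when released from the ribosome, had 979 and 934 (0.07, -0.33 plain), and lay above the member median in the 6 other classes. Rplp0 and Rps2 did so in 5 of the 6, Rpl36al in 4, and Rpl10a, the next member in order, in 3.

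Under imeglimin, 11.1 over 3.9 mM glucose gave a smaller shift and a wider spread between members. The median log2 ratio was -0.22, against -0.13 over 6054 genes, with a range of -1.10 to 0.63; plain scaling gave -0.36 and the total without hormone and mitochondrial genes -0.08. Of the members, 23 lay above 0, against 41.8% of genes, 2 were at least 1.5-fold higher, against 15.5%, and 7 at least 1.5-fold lower, against 23.5%. Rpl41, the shortest ribosomal protein, had 3722 at 11.1 mM and 2406 at 3.9 mM (0.63), and Rpl12, at the base of the stalk, had 1752 and 1153 (0.60). In the 6 other classes Rpl41 ranged from -0.01 to 0.22 and Rpl12 from -0.35 to 0.04. At the low end, Rpl10 had 1131 at 11.1 mM and 1893 at 3.9 mM (-0.74), Rpl7a 532 and 863 (-0.70) and Rpl9 1421 and 2219 (-0.64). Their ratios were below 0 in all the other classes too. The comparisons under imeglimin and vehicle share no library, but each shares one with a comparison of imeglimin to vehicle.

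The 60S stalk, the flexible arm that recruits translation factors, consists of Rplp0 with dimers of Rplp1 and Rplp2, and its members did not move alike. At 11.1 mM Rplp1 had 2769 scaled UPM with imeglimin and 1569 with vehicle (log2 ratio 0.82), and 1946 and 1732 at 3.9 mM (0.17, -0.14 plain). Rplp2 had 778 and 485 at 11.1 mM, and 749 and 645 at 3.9 mM. Rplp0 at 11.1 mM had 1281 with imeglimin and 1003 with vehicle (0.35), and 1176 and 859 at 3.9 mM (0.45, 0.15 plain). Rplp1 and Rplp2 thus had their largest gap between imeglimin and vehicle at 11.1 mM. Rplp0 had gaps of similar size at both glucose levels after TMM only. Its ratios at 11.1 and 3.9 mM were 0.30 and 0.15 plain, and 0.16 and 0.30 without hormone and mitochondrial genes. Rps6, the 40S protein phosphorylated by S6 kinases, had 776 and 634 in imeglimin and vehicle at 11.1 mM, and 996 and 876 at 3.9 mM.

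Several members have roles outside the ribosome or in human ribosome disease, and these, named after their values were seen, were not uniform either. Rpl5 and Rpl11 bind Mdm2 together with 5S ribosomal RNA and thereby stabilise p53. At 11.1 mM Rpl5 had 1086 scaled UPM with imeglimin and 821 with vehicle (log2 ratio 0.40), and 1328 and 1191 at 3.9 mM (0.16, -0.15 plain). Rpl11 had 1121 and 1009 at 11.1 mM, and 1682 and 1519 at 3.9 mM, so imeglimin and vehicle were close at each glucose level (0.15 at 11.1 mM, and -0.04 without hormone and mitochondrial genes), and its main gap was between glucose levels. Rpl23, another Mdm2 binder, had 1762 and 1135 at 11.1 mM and 2001 and 1619 at 3.9 mM, a ratio of 0.63 at 11.1 mM and 0.31 at 3.9 mM, where it was level under plain scaling. Rps19, the gene most often mutated in Diamond-Blackfan anaemia, had 792 and 594 at 11.1 mM and 922 and 708 at 3.9 mM, with ratios of 0.41 and 0.38 after TMM but 0.36 and 0.07 under plain scaling. Rps26, another gene of that disease, had 565 and 332 at 11.1 mM, but 555 and 527 at 3.9 mM, so after TMM vehicle 11.1 mM alone was low.

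The members include 2 pairs of expressed paralogues, and in both the partners parted. Rpl36a (chrX:134585654-134588062, mm10) and Rpl36al (chr12:69182731-69184083) have coding sequences of the same length, 318 bases, in transcripts of 483 and 1276 bases. Rpl36a had 402, 210, 364 and 348 scaled UPM in imeglimin 11.1 mM, vehicle 11.1 mM, imeglimin 3.9 mM and vehicle 3.9 mM, so vehicle 11.1 mM stood alone at the bottom. Rpl36al had 634, 639, 523 and 525 in the same order, equal within each glucose level. This contrast recurred at 11.1 mM in other classes: in macrophage-like cells Rpl36a had 534 with imeglimin and 268 with vehicle, where Rpl36al had 461 and 494. How the submitters' counting divided reads that match both copies is not given in the sources used here.

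Rps27 (chr3:90212522-90213651) and Rps27l (chr9:66946086-66949516) both have 252 coding bases, and Rps27l is known as a target of p53. Rps27l had 354 and 284 with imeglimin and vehicle at 11.1 mM, and 760 and 601 at 3.9 mM, so it followed glucose, with a log2 ratio of 11.1 to 3.9 mM of -1.10 under imeglimin and -1.08 under vehicle. Rps27 had 724 and 491 at 11.1 mM, and 772 and 861 at 3.9 mM, and under imeglimin it was nearly level between the glucose levels (-0.09). In delta-like cells at 3.9 mM, Rps27l had 615 with imeglimin and 288 with vehicle (1.09), where Rps27 had 1154 and 1053. In stromal-like cells at 3.9 mM, Rps27l had 826 and 858, so the gap was not shared by every class.

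**Figure D3:**
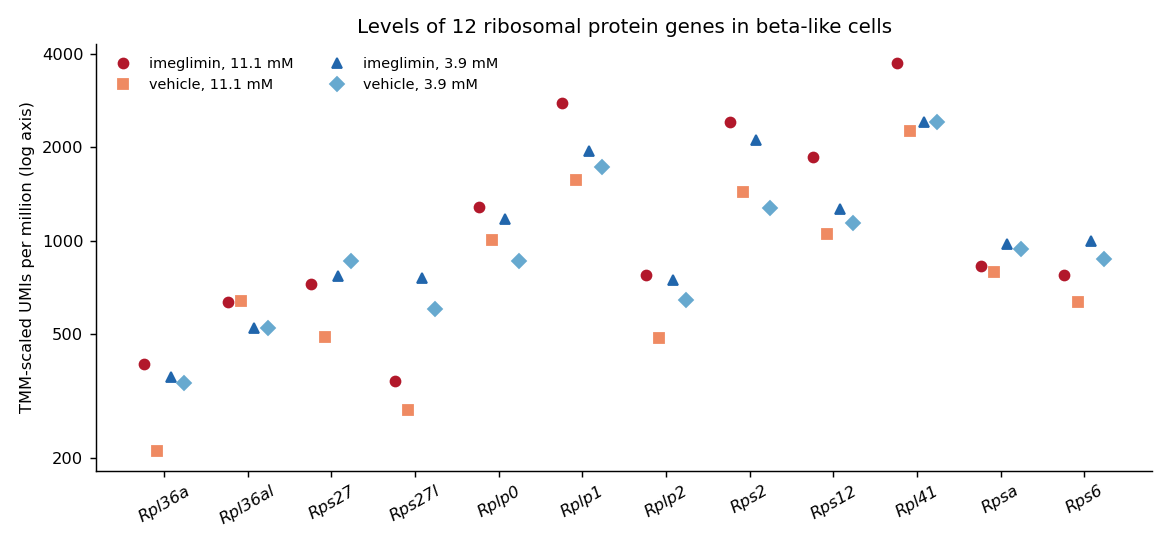
TMM-scaled UPM in beta-like cells (y axis, log scale) of 12 members (x axis), with 1 symbol per library and no replicates. Vehicle 11.1 mM is lowest for Rpl36a at 210, while Rpl36al has 634 and 639 at 11.1 mM and 523 and 525 at 3.9 mM; Rps27l is low in both 11.1 mM libraries, at 354 and 284.

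The imeglimin ratio at 11.1 mM was larger for members with short coding sequences. Coding lengths were available for all 78 members. The 26 shortest (up to 396 bases) had a median log2 ratio of 0.61 in beta-like cells, the middle 26 had 0.41 and the 26 longest (from 564 bases) had 0.29. Pearson's r with log2 length was -0.55 and Spearman's rho -0.60 over the 78 members, which share 2 libraries and their depth, so these describe these libraries. Rps2 was an exception among the longer members, at 0.76.

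The same order of the length groups at 11.1 mM was present in each of the other 6 classes, including the stromal-like cells, where the median of the members was not above 0 (shortest 0.10, middle -0.06, longest -0.22). At 3.9 mM it was absent in beta-like cells, with medians of 0.11, 0.19 and 0.20 from shortest to longest and a Spearman's rho of 0.26. Other genes with up to 450 coding bases had a median of 0.29 at 11.1 mM (555 genes), against 0.12 over all 5471 other genes with a length, and the 38 members of that length had 0.58. At 3.9 mM the 574 other short genes had 0.09 and the 38 members 0.14. A relation to length was not particular to the imeglimin ratio. For 11.1 over 3.9 mM glucose under imeglimin, Spearman's rho was negative in every class, from -0.61 in pp-like to -0.35 in beta-like cells. Under vehicle it was positive in every class, from 0.24 in beta-like to 0.54 in pp-like cells. In beta-like cells under vehicle, other genes of up to 450 bases had a median of -0.35 and those above 450 and up to 900 bases -0.34. All other genes with a length had -0.15 there, and members of those 2 lengths -0.50 and -0.48. Under imeglimin the other genes of those 2 lengths had -0.12 and -0.37, and the members -0.05 and -0.36. Each glucose comparison shares 1 library with the imeglimin ratio at 11.1 mM. RNA quality was not measured in these files, and its part in the relation to length was not tested.

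**Figure D4:**
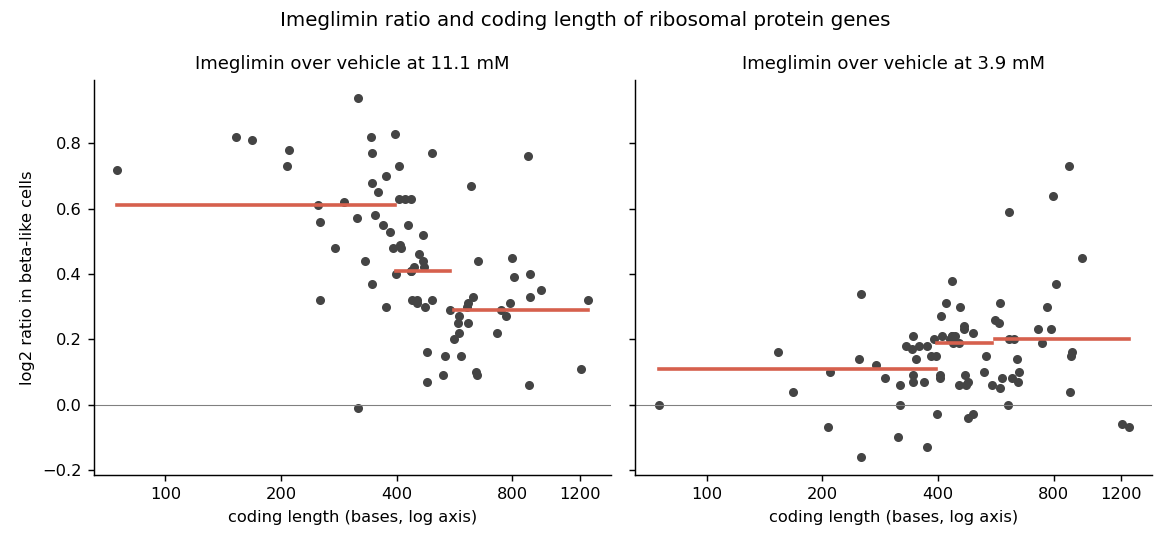
Log2 ratio of imeglimin to vehicle in beta-like cells (y axis) against coding length in bases (x axis, log scale) for the 78 members, at 11.1 mM on the left and 3.9 mM on the right; red lines are the medians of the shortest, middle and longest 26. The medians step down with length at 11.1 mM (0.61, 0.41, 0.29) and not at 3.9 mM (0.11, 0.19, 0.20).

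Outside the beta-like cells, members were also mostly higher with imeglimin, except in stromal-like cells. At 11.1 mM the median log2 ratio over members, with that of all genes after it, was 0.29 and 0.05 in alpha-like, 0.18 and 0.03 in delta-like, 0.24 and 0.02 in pp-like, 0.30 and 0.03 in endothelial-like and 0.48 and 0.01 in macrophage-like cells. In stromal-like cells it was -0.05 and -0.04. The number of members at least 1.5-fold higher was 4 in alpha-like cells (5.81% of all genes were), 4 in delta-like (3.56%), 5 in pp-like (8.35%), 18 in endothelial-like (8.03%), 25 in macrophage-like (9.83%) and 0 in stromal-like cells (7.47%). As shares of the members these were 5.13%, 5.13%, 6.41%, 23.1%, 32.1% and 0%, so the endothelial-like and macrophage-like counts lay well above the share of all genes and the others near or under it. Those 2 classes held 145 to 423 cells per library in this comparison, and their depths were unequal. The median was 3193 UMIs with imeglimin and 6088 with vehicle in endothelial-like cells, and 4102 and 5111 in macrophage-like cells. The part of depth in these counts was not tested outside beta-like cells.

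At 3.9 mM the order of the classes was another one, with beta-like cells among the lowest. The medians over members and over all genes were 0.46 and 0.17 in alpha-like, 0.42 and 0.21 in delta-like, 0.47 and 0.11 in pp-like, 0.42 and 0.06 in endothelial-like, 0.17 and -0.05 in macrophage-like and -0.17 and -0.04 in stromal-like cells. At least 1.5-fold higher were 19 members in alpha-like cells (20.5% of all genes were), 12 in delta-like (22.2%), 19 in pp-like (13.3%), 15 in endothelial-like (8.4%), 1 in macrophage-like (10.6%) and 0 in stromal-like cells (9.56%). In alpha-like and delta-like cells those counts, 24.4% and 15.4% of members, lay near or under the share of all genes. The alpha-like cells also split by treatment: cluster 6 held 809 of imeglimin 11.1 mM, 79 of vehicle 11.1 mM, 1369 of imeglimin 3.9 mM and 33 of vehicle 3.9 mM, and cluster 2 held 37, 552, 18 and 607.

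The shares of all UMIs, which need no scaling factor, gave the same directions in these classes, with 1 exception. Members held 12.7% with imeglimin and 11.2% with vehicle of alpha-like UMIs at 11.1 mM, and 13.8% and 11.8% at 3.9 mM. In pp-like cells the shares were 10.8% and 8.5% at 11.1 mM and 12.2% and 8.85% at 3.9 mM, and in macrophage-like cells 11.1% and 8.21%, and 10.8% and 9.82%. The exception was the stromal-like class at 11.1 mM, with 14.4% with imeglimin and 13.7% with vehicle, against 16.4% and 16.5% without hormone and mitochondrial genes. Hormone and mitochondrial genes together held 6.65% to 16.7% of UMIs in endothelial-like, macrophage-like and stromal-like cells, of which mitochondrial genes made up 1.16% to 1.91% of UMIs. These cells are not known to make islet hormones; the source of the hormone UMIs and their part in the ratios were not tested.

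Between glucose levels under vehicle, members were lower at 11.1 mM in endothelial-like (median log2 ratio -0.23), macrophage-like (-0.21) and stromal-like cells (-0.32), and close to level in alpha-like (-0.06), delta-like (-0.07) and pp-like cells (0.01). Under imeglimin the medians of 11.1 over 3.9 mM were -0.29 in alpha-like, -0.35 in delta-like, -0.20 in pp-like, -0.32 in endothelial-like, -0.22 in stromal-like and 0.03 in macrophage-like cells.

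**Figure D5:**
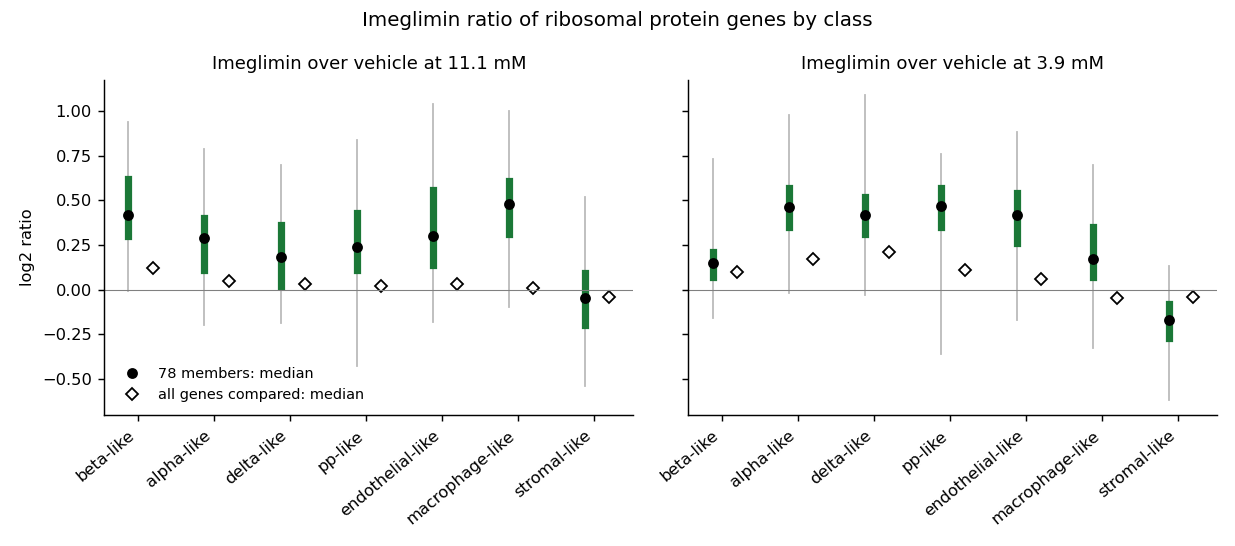
Log2 ratio of imeglimin to vehicle (y axis) by class of cells (x axis), at 11.1 mM on the left and 3.9 mM on the right; dots are medians over the 78 members, green bars their quartiles, thin lines their range, and diamonds the median of all genes compared. Members lie above the gene median in 6 of 7 classes at 11.1 mM, and in stromal-like cells at -0.05 and -0.17 in the 2 panels.

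Other genes of the translation machinery were counted in beta-like cells from lists of names. Ribosome biogenesis factors had a median log2 ratio of 0.37 for imeglimin over vehicle at 11.1 mM, with 29 of the 30 compared above 0, against 67% of all genes; the nucleolar protein Ncl had 395 with imeglimin and 264 with vehicle (0.58). Mitochondrial ribosomal proteins had a median of 0.29 (64 of 68 above 0) and translation initiation factors 0.18 (40 of 45). Elongation factors and other mRNAs with a terminal pyrimidine tract had 0.10, below the 0.12 of all genes, although Eef1a1 (3409 and 2601, 0.39) and Tpt1 (5451 and 3884, 0.49) lay near the member median. Among ribosomal proteins outside the symbol rule, Rack1 had 639 and 488 (0.39), Rps3a1 1248 and 1117 (0.16) and Fau 977 and 979.

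The same lists at 11.1 over 3.9 mM glucose under vehicle had medians of -0.56 for biogenesis (1 of 33 above 0), -0.61 for mitochondrial ribosomal proteins (3 of 70) and -0.46 for elongation factors and other pyrimidine-tract mRNAs (1 of 20), against a median of -0.16 and 38% above 0 over all genes. Npm1, a nucleolar chaperone of ribosome assembly, had 280 at 11.1 mM and 740 at 3.9 mM (-1.40). Under imeglimin these lists had medians of -0.44, -0.57 and -0.43, against -0.13 over all genes, and the cytosolic members -0.22, against -0.48 under vehicle. At 11.1 mM the list of mTORC1 and pyrimidine-tract mRNA control genes had a median of 0.20 for imeglimin over vehicle, against 0.12 over all genes. This list mixes activators, inhibitors and targets of mTORC1, so its median gives no direction for the pathway. Of the 12 compared, 10 lay above 0, against 67% of all genes. At least 1.5-fold higher was 1 of the 12, and 2 were at least 1.5-fold lower. Castor2, a negative regulator of mTORC1, had 60.8 with imeglimin and 122 with vehicle. Pdcd4, an inhibitor of initiation, had 135 and 206, and Sesn2, a leucine sensor, 77.0 and 48.6. Whether these genes bear on the ribosomal protein counts was not tested.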

How the data were processed

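Per the labels, 4 libraries of cultured islet cells were made with 10x Genomics 3′ chemistry. The authors deposited raw counts of UMIs per gene and barcode, made with Cell Ranger 6.0.2 on mm10 per the submitters' processing notes; the gene annotation and the treatment of reads that match several genes are not given in the sources used here. Ribosomal protein mRNAs have many pseudogene copies, so that treatment could alter their counts. Barcodes under 1000 UMIs or 500 genes, or over 20% mitochondrial, were left out, leaving total depths of 90066780 to 105649755 UMIs per library. Scrublet in scanpy 1.11.5 called 0 doublets in each library and had not worked, so none were removed. Cells were clustered on 2000 variable genes without ribosomal protein genes (30 components, 15 neighbours, Leiden resolution 1), and a cluster was named from at least 3 detected markers. Clusters left unnamed held 11.6% to 16.3% of the kept cells of a library and entered no class.

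UMIs were summed per class and library and scaled by TMM (edgeR 4.0.16, R 4.3.3). Log2 ratios carry exact 95% conditional binomial intervals, and shares exact binomial ones. No test was made, as each group has 1 library. Genes entered a comparison at 20 UPM (UMIs per 1000000) in beta-like cells and 50 in other classes. Positions and coding lengths come from GENCODE vM21 (GRCm38), promoters from RefSeq. Members and gene lists were chosen with earlier results of these data known, so none is independent support. The text names the 5 members farthest above and below the member median in each comparison, paralogue pairs, stalk members, Rpsa, Rps6 and up to 4 genes of each list with the largest ratios; Rps3a1 and Fau at 11.1 mM, the members next in order there and those with roles outside the ribosome or in disease were named after their values were seen. The ratio calculation recovered known changes when tested on simulated data, which does not show which scaling suits these libraries. Alternatives were other scalings, per-cell means, thinning to 3000 UMIs, stricter cells, high doublet scores left out, another cluster resolution and other member minimums. Some members are not reported here by name.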

Additional observations from a re-analysis of the deposited data

Results flagged for a closer look

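In beta-like cells 11 members had imeglimin ratios of opposite sign at the 2 glucose levels, above 0 at 11.1 mM and below 0 at 3.9 mM after TMM scaling. The ratio at 11.1 mM minus that at 3.9 mM was 0.79 on the log2 scale for Rpl12, 0.80 for Rps28, 0.72 for Rps27, 0.72 for Rpl41, 0.67 for Rpl36, 0.43 for Rps24, 0.43 for Rps25, 0.39 for Rpl4, 0.30 for Rpl13a, 0.21 for Rpl21 and 0.17 for Rpl3. Rpl41 and Rpl13a were at -0.00 at 3.9 mM, with counting intervals of -0.01 to 0.01 and -0.02 to 0.02. Each group has 1 library, so none of these differences was tested. Their sign at 3.9 mM was the same with plain UPM, where 70 of 78 members lay below 0, and without hormone and mitochondrial genes. In the last scaling Rpl21 and Rpl3 were below 0 at 11.1 mM as well, at -0.03 and -0.09.

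The median over members went against that of beta-like cells in 3 classes, again untested. In stromal-like cells imeglimin over vehicle gave -0.05 at 11.1 mM and -0.17 at 3.9 mM. In macrophage-like cells 11.1 over 3.9 mM under imeglimin gave 0.03, and in pp-like cells 11.1 over 3.9 mM under vehicle gave 0.01.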

How the results depend on the processing

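Values run imeglimin over vehicle at 11.1 mM, the same at 3.9 mM, 11.1 over 3.9 mM under imeglimin, and the same under vehicle. The median log2 ratio of members in beta-like cells was 0.42, 0.15, -0.22 and -0.48 with TMM; 0.36, -0.16, -0.36 and -0.87 with plain UPM; 0.22, -0.01, -0.08 and -0.30 without hormone and mitochondrial genes in the total; and 0.38, -0.15, -0.35 and -0.87 as means of per-cell values. The sign at 3.9 mM thus reversed under 3 scalings. Relative to TMM, plain scaling and the total without hormone and mitochondrial genes move every gene alike, by -0.31 and -0.15 at 3.9 mM and by -0.39 and 0.19 for glucose under vehicle; per-cell means weight the cells otherwise and have no such constant shift. Cells from 10000 UMIs up and with 5% mitochondrial UMIs or less gave 0.36 at 11.1 mM, 0.13 at 3.9 mM and -0.43 for glucose under vehicle. Thinning gave 0.13 at 3.9 mM, and cluster resolution 0.5 gave -0.24 for glucose under imeglimin. Leaving out clusters led by Hspa1a, Ifit3 or Top2a, chosen after seeing the data, gave 0.40 and 0.13 for imeglimin at 11.1 and 3.9 mM.

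Members at least 1.5-fold higher with imeglimin at 11.1 mM numbered 21, and 6 without hormone and mitochondrial genes; at 3.9 mM 3, and 0 in each of the 3 other scalings. For glucose under imeglimin 2 were higher, against 0 plain, 0 per cell, 4 without hormone and mitochondrial genes, 1 with thinning and 1 at resolution 0.5, and 7 were lower, against 19, 18 and 2 in the 3 scalings. For glucose under vehicle 25 were lower, against 68, 68 and 9. Without a member minimum, 1 further gene counted as 1.5-fold lower with imeglimin at 11.1 mM and 1 as higher for glucose under vehicle. Neither is a measured change, because a sum of 0 UMIs was entered as 3. Rpl39l had 0.0259 UPM with imeglimin and 0 with vehicle at 11.1 mM. Rpl3l under vehicle had 0 UPM at 11.1 mM and 0.0158 at 3.9 mM.

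The members' share of beta-like UMIs in imeglimin 11.1 mM, vehicle 11.1 mM, imeglimin 3.9 mM and vehicle 3.9 mM was 7.63%, 5.78%, 9.41% and 10.4%. It was 12.9%, 10.8%, 13% and 13% without hormone and mitochondrial genes, 7.67%, 5.79%, 9.43% and 10.3% as a mean over cells, and 7.67%, 5.79%, 9.47% and 10.3% after thinning. The deeper cells gave 7.58%, 5.75%, 9.22% and 10.4%, leaving out high doublet scores 7.62%, 5.77%, 9.4% and 10.4%, and leaving out the 3 kinds of cluster 7.64%, 5.72%, 9.65% and 10.4%. Resolution 0.5 gave 5.81% in vehicle 11.1 mM. Beyond the construction of each scaling, the cause of these shifts was not tested. No paired analysis was possible because each condition has 1 library, and for the same reason no replicate could be left out. Depth limits single members little, with a widest 95% interval of 0.06 on the log2 scale in beta-like cells and 0.53 in macrophage-like cells.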

Other observations

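Among the remaining lists in beta-like cells, the RNA polymerase I machinery had a median log2 ratio of 0.23 for imeglimin over vehicle at 11.1 mM and 0.60 at 3.9 mM, with 6 genes compared. The polymerase subunit Polr1c had 80.0 scaled UPM with imeglimin at 3.9 mM and 53.3 with vehicle, and 30.4 and 24.7 at 11.1 mM. Genes of stalled ribosome rescue had medians of 0.25 at 11.1 mM and 0.16 at 3.9 mM. Nutrient and stress controls had 0.74 at 11.1 mM and 0.30 at 3.9 mM; the stress factor Ddit3 at 11.1 mM had 397 with imeglimin and 128 with vehicle, and 1864 and 1155 at 3.9 mM. The ribosomal protein counts were thus lowest in vehicle 11.1 mM, the library in which Ddit3 was also lowest, which is a description of 4 libraries and was not tested.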
